A study of Mus musculus with 8 samples.

Results

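Of 8 bulk RNA-seq libraries from newborn mouse calvaria (the flat bones that roof the skull), 3 held little skeletal muscle RNA and 5 held much more. The 3 muscle-poor libraries were wild-type replicate 3 (WT3) and knockout replicates 2 and 3 (KO2 and KO3). The 5 muscle-rich libraries were WT1, WT2, WT4, KO1 and KO4. The libraries were chosen by measured values: the 3 libraries with the lowest summed CPM (read counts scaled to a common library size) of 5 skeletal muscle genes, Acta1, Ckm, Tnnt3, Mylpf and Myh3, against the rest. Every difference between the classes is therefore a description without a test, given for many genes with a standard error.

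All mice were female C57BL6, 2 to 3 days old, with 4 libraries labelled wild type and 4 labelled Girk3 knockout, a deletion of the potassium channel subunit encoded by Kcnj9. The calvaria were rinsed, frozen and homogenised before RNA extraction, and the knockout is described as global. The series title places the work in research on bone mass. Muscle-poor libraries made up 1 of 4 wild-type and 2 of 4 knockout libraries, and genotype was a term in the models behind the values below. The labels do not say which mice shared a litter or a dissection day, so p-values measure the spread between these samples.

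Skeletal muscle fibres are long fused cells packed with sarcomeres, in which thin filaments of actin, tropomyosin and troponin slide along thick filaments of myosin. A nerve signal received at the neuromuscular junction is carried along the membrane and releases calcium from the sarcoplasmic reticulum, which starts contraction. Jaw and neck muscles attach to the outside of the skull, and around birth muscle fibres still make embryonic and neonatal myosin beside the adult forms.

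Library totals ran from 35392465 to 54290034 counts, 1 count was worth at most 0.0283 CPM, and 24545 to 25729 genes had counts in 7 libraries against 28520 in KO4, a muscle-rich library. Kcnj9 had 0, 0, 1 and 4 counts in the wild-type and 2, 5, 7 and 9 in the knockout libraries, so it does not check the labels at this depth, and knockout below means labelled so. Genes that define bone were present in both classes, most of them at overlapping levels. Among them was Col1a1, the main bone collagen, at 75071 ± 2498 CPM in the muscle-poor and 86038 ± 11750.0 CPM in the muscle-rich libraries (SD, n = 3 and 5). Sp7, a transcription factor required for osteoblasts, was at 478 ± 45.7 and 459.9 ± 17.8 CPM in the same order.

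The summed level of the 5 markers was 4.54 CPM in WT3, 24.3 in KO2 and 84.6 in KO3. In the muscle-rich libraries it was 389.5 CPM in KO4, 771 in WT4, 892 in WT2, 1161 in WT1 and 1498 in KO1. The boundary lies between KO3 and KO4, which differed 4.61-fold, while WT3 and KO3 within the muscle-poor class differed more than that. The markers took up 0.000454% to 0.00846% of the counts in the muscle-poor class and 0.039% to 0.15% in the muscle-rich class.

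**Figure D1:**
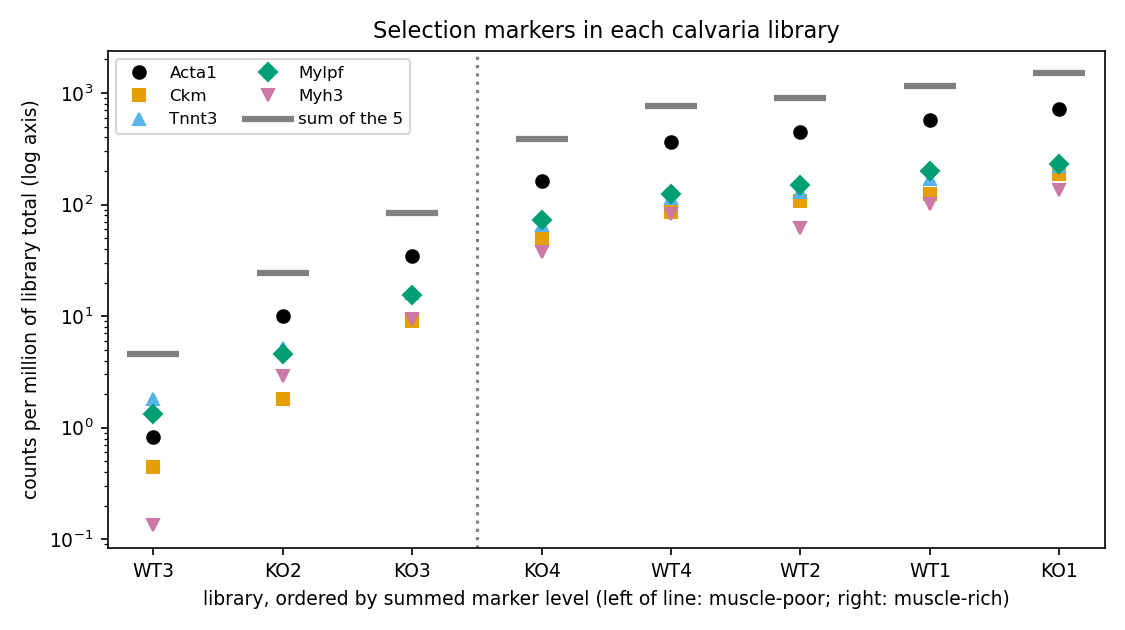
Level of the 5 selection markers (symbols) and their sum (grey dashes) in each library, in CPM of the library total on a log axis, ordered by the sum. WT3, KO2 and KO3 lie left of the dotted line and their sums of 4.54 to 84.6 CPM all lie below the muscle-rich sums of 389.5 to 1498 CPM, which is what the choice of libraries fixed.

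Because these genes carry the choice, the DNA just before the starts of Acta1, Ckm, Mylpf and Myh3 is shown, with that of 2 red cell genes, Hemgn and Ermap, which lay at the other end of the comparison. Each line holds the 250 bases that end 1 base before the RefSeq transcript start, read 5′ to 3′ on the gene's own strand, from GRCm38.p6. For the muscle genes, capitals mark CANNTG, the E-box letters that myogenic factors such as MyoD can bind, and the CArG box, the letters read by serum response factor. For Hemgn and Ermap, capitals mark GATAA on either strand, the core letters read by GATA factors.
Acta1: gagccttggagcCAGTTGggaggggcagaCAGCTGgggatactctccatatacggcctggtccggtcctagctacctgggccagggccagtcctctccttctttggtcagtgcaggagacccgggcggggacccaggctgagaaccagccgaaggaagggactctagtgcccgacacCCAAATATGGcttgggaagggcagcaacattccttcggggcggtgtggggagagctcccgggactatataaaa
Ckm: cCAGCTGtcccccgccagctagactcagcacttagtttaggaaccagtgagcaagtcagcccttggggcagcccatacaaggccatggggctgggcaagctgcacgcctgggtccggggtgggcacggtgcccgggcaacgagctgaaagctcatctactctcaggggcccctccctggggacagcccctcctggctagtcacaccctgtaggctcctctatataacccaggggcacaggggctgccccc
Mylpf: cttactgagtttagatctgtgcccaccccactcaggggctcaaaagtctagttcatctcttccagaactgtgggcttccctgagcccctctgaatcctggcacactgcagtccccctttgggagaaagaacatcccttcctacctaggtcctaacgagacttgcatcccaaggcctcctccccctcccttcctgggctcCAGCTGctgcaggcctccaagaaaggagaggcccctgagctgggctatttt
Myh3: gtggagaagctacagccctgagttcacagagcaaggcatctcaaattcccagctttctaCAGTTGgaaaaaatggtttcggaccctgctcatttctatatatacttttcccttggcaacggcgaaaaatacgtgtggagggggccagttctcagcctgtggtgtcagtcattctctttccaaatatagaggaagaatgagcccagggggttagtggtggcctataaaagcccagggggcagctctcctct
Hemgn: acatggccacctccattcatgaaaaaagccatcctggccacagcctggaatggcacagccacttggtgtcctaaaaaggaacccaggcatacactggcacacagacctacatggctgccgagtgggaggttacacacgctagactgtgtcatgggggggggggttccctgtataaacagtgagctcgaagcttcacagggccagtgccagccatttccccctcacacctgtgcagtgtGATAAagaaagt
Ermap: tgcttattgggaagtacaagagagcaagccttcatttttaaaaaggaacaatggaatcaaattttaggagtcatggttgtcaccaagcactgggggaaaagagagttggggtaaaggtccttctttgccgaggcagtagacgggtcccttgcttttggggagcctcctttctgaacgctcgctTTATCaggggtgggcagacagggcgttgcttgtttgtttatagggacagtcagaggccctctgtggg
The windows are, in the same order, Acta1 at chr8:123894776-123895025 (minus strand), Ckm at chr7:19410844-19411093 (plus), Mylpf at chr7:127211358-127211607 (plus), Myh3 at chr11:67078050-67078299 (plus), Hemgn at chr4:46404184-46404433 (minus) and Ermap at chr4:119189996-119190245 (minus). Acta1 held 2 E-boxes and 1 CArG box, and the other 3 muscle genes held 1 E-box each and no CArG box. Both strands were searched, and matches of different motifs were counted separately even where they overlapped. Of the genes themselves, Acta1 lies at chr8:123891769-123894751, Ckm at chr7:19404776-19422841, Tnnt3 at chr7:142498836-142516009, Mylpf at chr7:127208890-127214298 and Myh3 at chr11:67078300-67102291, all protein-coding. Among 32851 promoter windows of this length, 66.2% held CANNTG, 1.47% a CArG box and 22.6% GATAA. The windows of muscle list genes set apart below (89 windows of 79 genes) held them in 80.9%, 5.62% and 19.1%, close to the 76.8%, 6.21% and 20.9% of all tested muscle list genes (177 windows of 130 genes). GATAA stood in 14 of 20 windows of the erythroid list (70% of windows, 18 genes). A match is a run of letters and is not shown here to be bound.

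Of 18266 tested genes, 312 (1.71%) were at least 2-fold lower in the muscle-poor class after adjustment for genotype, with no muscle-poor library reaching any muscle-rich one. In the other direction 64 genes (0.35%) met the same rule. These genes are called set apart. The 312 lower genes differed widely, 200 of them at least 4-fold and 79 at least 16-fold, while 14 of the 64 higher genes differed at least 4-fold. Without a fold limit, 928 genes (5.08%) were lower and 605 (3.31%) higher without overlap, and the median log2 difference of all tested genes was -0.00. The set-apart lower genes together took up 0.0428% to 0.0761% of counts in the muscle-poor libraries and 0.205% to 0.631% in the muscle-rich libraries, so these genes were a small part of the counts of every library. In whole tissue, fewer muscle fibres and less muscle RNA per fibre cannot be told apart.

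**Figure D2:**
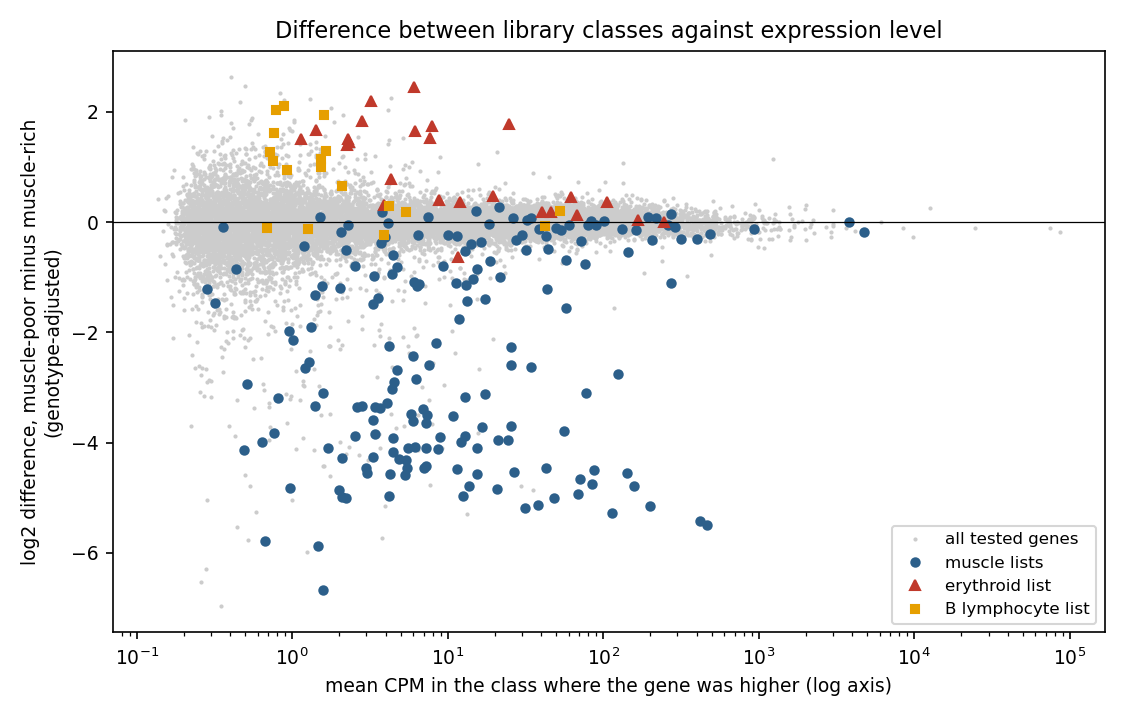
Genotype-adjusted log2 difference, muscle-poor minus muscle-rich, of each tested gene (y axis) against its mean CPM in the class where it was higher (x axis, log scale), with genes of the muscle, erythroid and B lymphocyte lists marked. Muscle genes spread from slightly above 0 down to -6.68 and include the most abundant of the strongly lower genes, whereas the erythroid genes that stand above the cloud are less abundant.

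Thin filament genes were among the steepest. Of 18 tested genes of thin filament and troponin proteins, the markers Acta1 and Tnnt3 among them, 15 were set apart lower, with a median log2 difference of -3.27. For this and the muscle lists that follow, the share among all tested genes was 1.71%. Acta1, the actin of adult skeletal muscle, was at 0.827, 9.56 and 33.6 CPM in WT3, KO2 and KO3, the order used for the muscle-poor class throughout. It was at 579, 459, 375, 742 and 158 CPM in WT1, WT2, WT4, KO1 and KO4, the order used for the muscle-rich class. The log2 difference was -5.50 ± 1.35 (SE), and the class means were 9.54 and 301 CPM per kb of exon. KO4, the lowest muscle-rich library, lay above KO3, but Acta1 is a selection marker, so the choice of libraries favoured this separation.

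Actc1, the actin that dominates in heart and in immature skeletal fibres, followed the same pattern, with 0.0447, 0.781 and 2.94 CPM against 42.7, 41.6, 26, 67.2 and 11.6 CPM (log2 difference -5.14 ± 1.10). Tnnc2, the calcium sensor of fast fibres, was at 0.112, 0.621 and 2.28 CPM against 38.4, 25.8, 24.6, 42.2 and 26.1 CPM (log2 difference -5.19 ± 0.68). Lmod2, which lengthens thin filaments, differed by -4.97 ± 0.96. The 3 members not set apart were Tnnc1, the slow and cardiac calcium sensor, and the tropomyosins Tpm1 and Tpm3. Tpm1 and Tpm3, which many non-muscle cells also make, stayed at 88.6% and 92.8% of the muscle-rich mean. Tpm2 was in between, at 120.0, 129 and 135 CPM against 309.6, 277, 236, 347 and 196 CPM.

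Myosin chains divided into developmental and fast forms, most of them set apart, and slow forms whose classes overlapped. Of 16 heavy chain, light chain and myosin kinase genes, 10 were set apart lower (median -3.69). Myh8, the neonatal heavy chain, was at 0.716, 9.17 and 39.9 CPM against 409, 312, 354, 815 and 214 CPM (log2 difference -5.43 ± 1.28). Its embryonic neighbour Myh3 was at 0.134, 2.79 and 9.24 CPM against 103, 62.7, 84.7, 139 and 36.4 CPM. The 2 adult fast chains Myh1 and Myh2 differed by -4.83 ± 0.86 and -4.54 ± 1.03. Myh4, the fastest adult chain, overlapped between the classes, with 0.201, 0.461 and 0.0226 CPM against 0.202, 0.770, 15.7, 4.96 and 0.570 CPM, and its highest value was in WT4.

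Per kb of exon, Myh8 made up 55.1% to 68.6% of the summed heavy chain RNA of the muscle-rich libraries and Myh3 22.4% to 27.0%. KO2 and KO3 also held mostly these 2 chains, with 52.3% and 60.0% Myh8 and 30.9% and 27.0% Myh3, on 768 and 2408 heavy chain counts. WT3 had 53 heavy chain counts in all, too few to give its make-up with any precision.

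**Figure D3:**
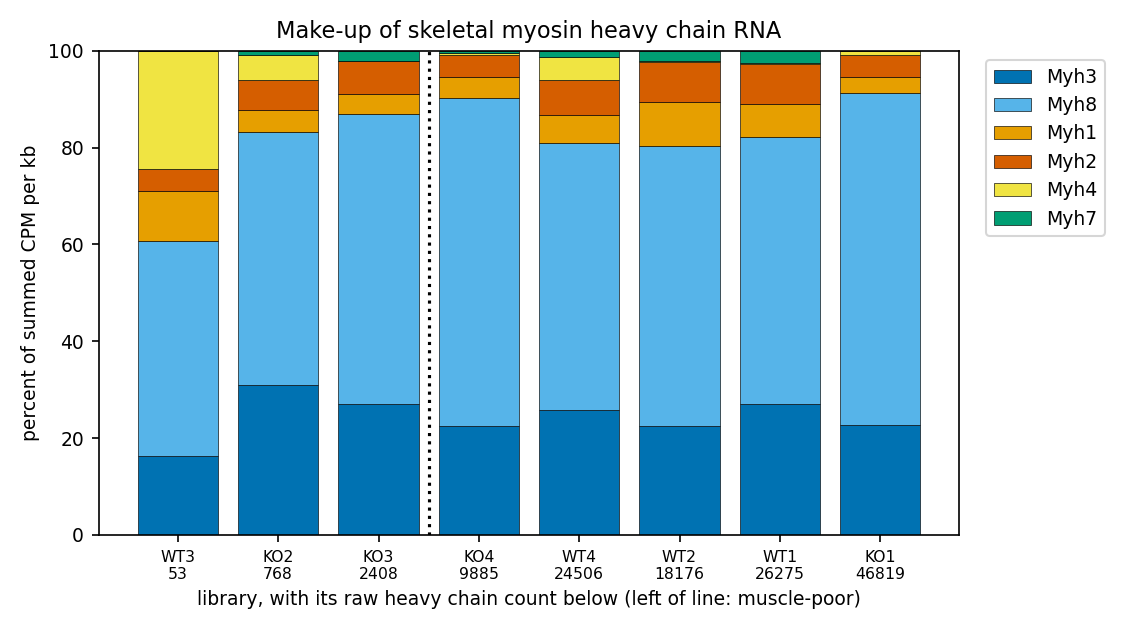
Share of each skeletal myosin heavy chain in the summed CPM per kb of the 6 chains, for each library in order of muscle content, with the raw heavy chain count under each name. Myh8 and Myh3 make up most of every bar, the WT3 bar resting on 53 counts. Myh7 is visible in wild-type muscle-rich libraries and in KO3 (2.04%), but barely in KO1 and KO4.

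The slow heavy chain Myh7 cut across the classes. It was at 0, 0.124 and 0.994 CPM in the muscle-poor libraries, at 14.1, 8.06 and 6.17 CPM in WT1, WT2 and WT4, and at 0.303 and 1.00 CPM in KO1 and KO4. Among muscle-rich libraries the 2 knockout values thus lay below the 3 wild-type values, although KO1 had the most muscle RNA of all. This did not hold for every knockout library as a share of heavy chain RNA per kb. Myh7 made up 2.04% in the muscle-poor library KO3, within the 1.32% to 2.60% of WT1, WT2 and WT4. The slow light chains Myl2 (4.03, 2.24, 1.01, 0.260 and 0.190 CPM in the muscle-rich libraries) and Myl3 (3.94, 2.89, 2.07, 1.36 and 0.896 CPM) also separated the 2 knockout from the 3 wild-type libraries, as did Tnnt1 (7.25 CPM or more against 5.97 or less) and Mb (3.46 or more against 2.21 or less). Tnnc1 did not, since KO1 at 2.57 CPM lay above WT4 at 2.44 CPM. Tested between genotypes at equal muscle class with edgeR's quasi-likelihood test, Benjamini-Hochberg adjusted p was 0.486 for Myh7, 0.353 for Myl2, 0.217 for Myl3, 0.521 for Tnnt1, 0.38 for Tnnc1 and 0.65 for Mb, so none passed the threshold of 0.05. These 6 slow-fibre genes were picked after their values were seen.

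Thick filament, titin and Z-disc genes showed the lowest median of the sarcomere lists, -3.93, with 29 of 36 tested members set apart. Actn2, the actinin that anchors thin filaments at the Z-disc, was at 0.112, 1.06 and 4.43 CPM against 53.6, 42.1, 37.2, 87.9 and 19.5 CPM (log2 difference -5.0 ± 1.0). Myoz1 and Myot, Z-disc proteins of fast and mixed fibres, differed by -4.97 ± 0.86 and -4.78 ± 0.92. Trim54, a sarcomere-associated ubiquitin ligase, had 11 counts over the muscle-poor libraries, all in KO3, and 488 over the muscle-rich ones.

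Ttn, the giant spring protein of the sarcomere, behaved less steeply than its partners. Its level was 15.3, 17.6 and 26.1 CPM against 125, 90.1, 139, 217 and 51.7 CPM, a log2 difference of -2.76 ± 0.57, so the muscle-poor class kept 15.8% of the muscle-rich mean. WT3 and KO2 were close to each other for Ttn, unlike for Acta1. The members that overlapped between classes or differed under 2-fold, such as Myof (log2 difference 0.02) and Pdlim5 (-0.05), are made by many cell types.

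Calcium handling followed, with 18 of 25 tested genes set apart lower (median -2.63). Atp2a1, the calcium pump of fast fibres, was at 0.537, 2.18 and 5.31 CPM against 69.6, 66.1, 63.1, 118 and 28.9 CPM (log2 difference -4.93 ± 0.84). Casq1, the calcium store protein of the sarcoplasmic reticulum, differed by -4.45 ± 0.80, and Ryr1, the release channel, by -3.96 ± 0.71. Sln, a small inhibitor of the pump, had 0, 5 and 34 counts against 97 to 324. Asph and Kcnj2 were the 2 members above 0, at 0.02 and 0.28, and their classes overlapped.

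At the neuromuscular junction 6 of 12 tested genes were set apart lower (median -1.31). These were the acetylcholine receptor subunits Chrna1, Chrnb1, Chrnd and Chrng and their clustering partners Rapsn and Dok7. Chrnd, a subunit shared by fetal and adult receptors, had 2 counts over the muscle-poor libraries and 148 over the muscle-rich ones, a rate of 2.02% of the muscle-rich rate (exact 95% interval 0.242% to 7.43%, counting error only). Chrng, the fetal subunit, had 6 counts against 212, or 4.23% (1.54% to 9.37%). Lrp4 and Prkar1a, which have roles outside muscle, differed by 0.09 and -0.05.

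The membrane and dystrophin complex list had the smallest share of set-apart genes of the 9 muscle lists: 4 of 18 were set apart lower and the median was -0.25. Cavin4, a membrane coat protein of muscle, was at 0.537, 0.745 and 1.65 CPM against 7.24, 4.57, 5.97, 10.2 and 3.42 CPM (log2 difference -2.85 ± 0.49). Popdc3 and Cav3, membrane proteins of muscle, differed by -2.65 and -2.60. Dmd, which encodes dystrophin, differed by -0.25 ± 0.18 and its classes overlapped, with 8.83, 10.4 and 10.1 CPM against 12.6, 11.3, 11.5, 14.5 and 7.76 CPM. Dag1, which encodes dystroglycan, differed by -0.14 ± 0.09.

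Among 28 genes of muscle energy metabolism, 17 were set apart lower (median -1.29). Ckm, the muscle creatine kinase, was at 0.447, 1.74 and 8.88 CPM against 126, 110.0, 88.0, 195 and 48.2 CPM (log2 difference -5.27 ± 1.05). The muscle forms of cytochrome oxidase subunits, Cox8b and Cox6a2, each differed by -4.46, and Ampd1, the muscle AMP deaminase, by -4.31. By contrast, 34 tested respiratory chain subunits used by all tissues had a median of -0.15 and none was set apart. Eno3, the muscle enolase, was intermediate, at 16.2, 20.2 and 24.0 CPM against 63.2, 60.3, 48.9, 73.9 and 41.3 CPM. Aldoa and Ldha, glycolytic enzymes made widely, differed by -0.30 and -0.21 with no overlap of the classes.

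The myogenic regulators ranged from nearly absent to level. Of 27 tested genes 12 were set apart lower (median -0.59). Myod1, the factor that commits cells to muscle, had 0, 4 and 7 counts in the muscle-poor libraries and 81, 73, 89, 174 and 27 in the muscle-rich ones. Its rate in the muscle-poor class was 3.71% of the muscle-rich rate (exact 95% interval 1.84% to 6.69%). Myf6, a factor of mature fibres, had 0, 1 and 1 counts against 78, 58, 59, 118 and 34, or 0.862% (0.104% to 3.14%). Mstn, the secreted inhibitor of muscle growth, had 4 counts against 330, or 1.81% (0.491% to 4.69%).

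Genes of muscle stem cells and fusion went the same way. Pax7, the marker of satellite cells, had 0, 1 and 6 counts against 28, 9, 30, 69 and 9, or 7.22% (2.85% to 15.3%). Mymk, the fusion protein myomaker, had 1, 12 and 3 counts against 88, 48, 86, 123 and 33, or 6.33% (3.58% to 10.4%). Myog was at 5.39% (3.43% to 8.09%). The transcription factors Mef2a and Mef2c, also made by bone cells, were at 0.07 and 0.15 on the log2 scale, and the imprinted growth factor Igf2 at 0.01.

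**Figure D4:**
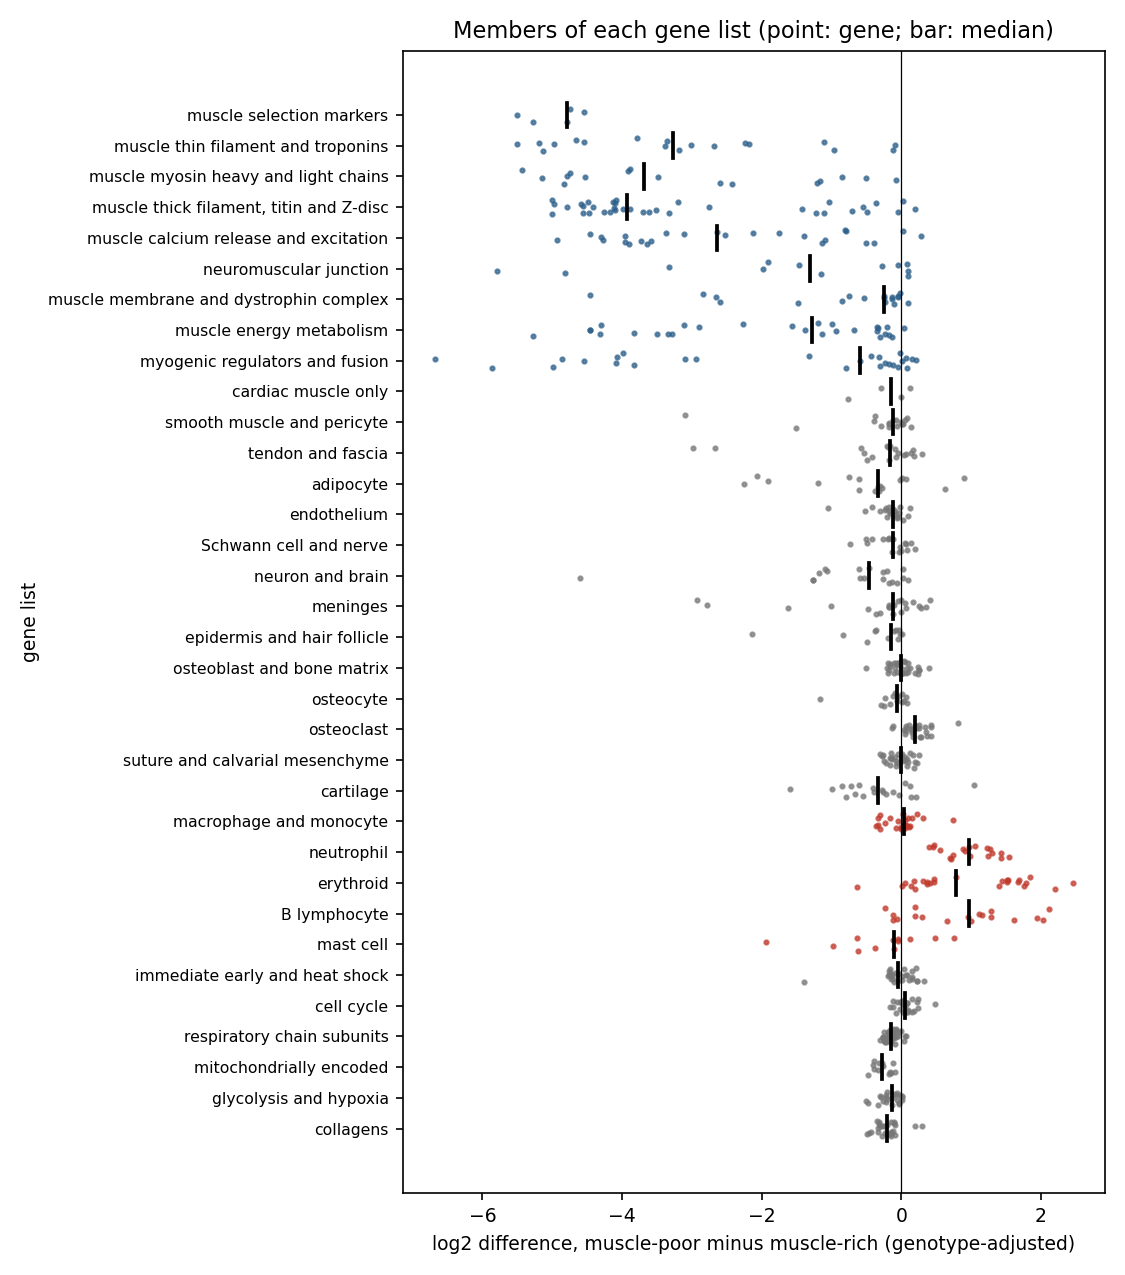
Genotype-adjusted log2 difference, muscle-poor minus muscle-rich, of every tested member of each gene list (points, with random vertical jitter) and the list median (black bars); muscle lists are blue, blood lists red and others grey. The median of -4.79 belongs to the selection markers, whose levels set the classes, and the other muscle medians run from -3.93 to -0.25. The osteoblast, osteocyte and suture medians sit near 0, and the neutrophil, erythroid and B lymphocyte medians lie between 0.78 and 0.98.

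Across all 179 tested genes of the 9 muscle lists, 110 were set apart lower and 0 higher, where 1.71% and 0.35% of all tested genes were. The 110 include the 5 selection markers, which carry the choice of libraries and also count in the thin filament, myosin and energy lists. Of the 179 genes, 67 kept under 10% of the muscle-rich mean in the muscle-poor class and 28 kept 10% to 25%. A further 22 kept 25% to 50%, 17 kept 50% to 75% and 45 kept 75% or more. The 110 set-apart genes were graded within the muscle-poor class, with median levels of 2.5% of the muscle-rich mean in WT3, 6.61% in KO2 and 14.1% in KO3. For 75 of them the order was WT3, KO2, KO3 from lowest to highest. Within the muscle-rich class KO4 was the lowest library for 93 of the 110 and KO1 the highest for 91.

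A further 191 of the 312 lower genes were in none of the lists. Sypl2, a membrane protein of the muscle triad, was at 0.0447, 0.160 and 0.904 CPM against 16.2, 13.0, 11.2, 20.1 and 5.81 CPM (log2 difference -5.29 ± 0.87). Atp1b4, a muscle protein of the nuclear envelope related to sodium pump subunits, differed by -4.86 ± 1.03, and Tceal7 by -4.79 ± 1.09. Hfe2, the hemojuvelin gene of muscle and liver, differed by -4.76 ± 0.83, and Mypn, a Z-disc scaffold, by -4.59 ± 0.63. Eef1a2, the translation factor form of muscle and neurons, differed by -4.09 ± 0.79. Arhgap36, Itgb1bp2, Klhl31 and Myo18b completed the 10 largest outside the lists among genes of at least 5 CPM, leaving out clone and gene model names, at -4.09, -3.83, -3.69 and -3.67.

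Neighbouring imprinted genes of the Dlk1 to Rtl1 cluster, named after their values were seen, differed in the same direction. Dlk1, a Notch-related membrane protein, was the most abundant of the set-apart lower genes outside the lists, at 39.1, 37.9 and 48.7 CPM against 129.7, 104, 90.7, 177 and 86.9 CPM (log2 difference -1.55 ± 0.27). Rtl1, from the same cluster and needed in fetal muscle, was at 1.14, 2.04 and 3.37 CPM against 15.4, 10.3, 10.9, 14.1 and 4.86 CPM (log2 difference -2.38 ± 0.55). Rian, a long non-coding RNA of the cluster, differed by -0.71 ± 0.17 without overlap. Meg3, another non-coding RNA there, overlapped between the classes, with 265, 401 and 351 CPM against 622, 442, 419, 595 and 385 CPM.

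Lists for other soft tissues held 0 to 2 genes each that were set apart lower, where 1.71% of all tested genes were. Smooth muscle and pericyte genes had a median of -0.12, with 2 of 17 set apart. These were Des, the intermediate filament that skeletal fibres share (7.72, 7.24 and 12.5 CPM against 96.7, 69.3, 68.8, 117 and 33.3 CPM), and Synpo2. Acta2, the smooth muscle actin, differed by -0.18 ± 0.09. Of 4 tested heart-specific genes none was set apart, and Myh6, the atrial myosin, averaged 0.860 ± 0.119 CPM in the muscle-poor and 0.825 ± 0.141 CPM in the muscle-rich libraries (SD).

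Tendon gave 2 set-apart genes of 19 (median -0.16). Thbs4, a matrix protein of tendon and muscle junctions, was at 0.827, 3.35 and 5.92 CPM against 17.6, 7.44, 12.4, 24.9 and 16.4 CPM (log2 difference -2.67 ± 0.52), and Kera, a tendon and corneal proteoglycan, differed by -2.98 ± 0.69. The tendon regulators Tnmd and Scx differed by -0.53 and -0.49. The adipocyte list gave 2 set-apart genes of 17 (Cidea and Thrsp), and cartilage, endothelium, epidermis, mast cells, neurons and the heat shock list 1 each (Matn1, Prox1, Trp63, Mrgprb1, Aqp4 and Hspb1). Aqp4, listed with brain, is also the water channel of fast muscle fibres. The nerve and meninges lists gave none.

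The bone cell lists held no set-apart gene, where 1.71% of all tested genes were set apart lower and 0.35% higher. At those shares, lists of this size would hold few such genes. Without a fold limit, 3 osteoblast genes were lower and 1 higher without overlap, and 3 suture genes were lower and 2 higher. Of all tested genes 5.08% were lower and 3.31% higher in that way. None of 33 osteoblast and matrix genes, 15 osteocyte genes, 28 osteoclast genes or 31 suture genes was set apart, with medians of -0.01, -0.07, 0.19 and -0.01. Runx2, the master factor of osteoblasts, differed by 0.25 ± 0.09 and Bglap, osteocalcin, by 0.10 ± 0.10. Of the osteoclast genes 26 of 28 lay above 0, among them Ctsk, the collagen-cutting protease, at 0.22 ± 0.15, and Acp5, the acid phosphatase, at 0.28 ± 0.15. The osteoclast median was 0.02 with replicate number as a block. At equal class 9 of the 28 genes were called lower in knockout (list median -0.47), where 1.3% of all tested genes were. The 334 genotype calls over all genes fell to 26 with that block and to 23 without WT3. Cartilage genes had a median of -0.33, with 15 of 20 below 0 and 5 lower without overlap. Collagens and the 13 mitochondrially encoded genes also leaned below 0, with medians of -0.21 (25 of 27 below 0) and -0.27 (13 of 13 below 0). Within wild type the mitochondrial median was 0.05 and within knockout -0.46.

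Among the 64 genes set apart higher, 17 were in the blood lists and 47 in no list, 23 of the 64 being clone or gene model names. Of 25 tested erythroid genes 11 were set apart higher (median 0.78), where 0.35% of all tested genes were. With a filter of 1 CPM in 3 libraries it was 9 of 23 (median 0.46). The red cell genes Hemgn, Slc4a1 and Ermap were among the 4 of the 64 that averaged at least 5 CPM. Slc4a1, the anion exchanger of the red cell membrane, was at 16.7, 38.9 and 19.2 CPM against 10.1, 8.40, 6.34, 3.48 and 8.31 CPM (log2 difference 1.78 ± 0.48). Hemgn, a nuclear protein of blood precursors, was at 3.31, 10.04 and 4.97 CPM against 1.73, 2.43, 0.476, 0.368 and 1.03 CPM (log2 difference 2.46 ± 0.79). KO2 had the highest value of both and KO1 the lowest.

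Ermap, a red cell membrane protein, differed by 1.53 ± 0.39. Regulators of the lineage were also set apart, with Gata1, the lineage's central transcription factor, at 1.25, 2.08 and 0.926 CPM against 0.427, 0.746, 0.373, 0.173 and 0.597 CPM (log2 difference 1.68 ± 0.44). Klf1, a globin gene activator, differed by 1.52 ± 0.32, and the membrane proteins Rhag and Epb42 by 2.20 ± 0.68 and 1.84 ± 0.63. Blood group gene Kel, outside the lists, differed by 2.03 ± 0.61. Dmtn, a red cell skeleton protein outside the lists, was at 4.43, 7.66 and 3.95 CPM against 3.94, 2.77, 2.38, 2.38 and 3.50 CPM (log2 difference 0.80 ± 0.26), with KO3 just above WT1.

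The haemoglobin genes overlapped between the classes. Hba-a1, an alpha globin, was at 238, 153 and 90.3 CPM against 257, 145, 158, 86.7 and 192 CPM (log2 difference 0.05 ± 0.38). Hbb-bs, the adult beta globin, differed by 0.01 ± 0.42. The 4 globins summed to 261 to 711 CPM in the muscle-poor and 250.1 to 806 CPM in the muscle-rich libraries. All 21 tested erythroid genes other than globins also overlapped in sum, at 306.6 to 395 and 225.6 to 308.8 CPM. The 11 set-apart erythroid genes summed to 44.2 to 95.0 and 8.16 to 27.2 CPM, a separation that their choice fixed. Erythroid Ank1, a membrane anchor, was the 1 member below 0, at -0.63 ± 0.28.

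**Figure D5:**
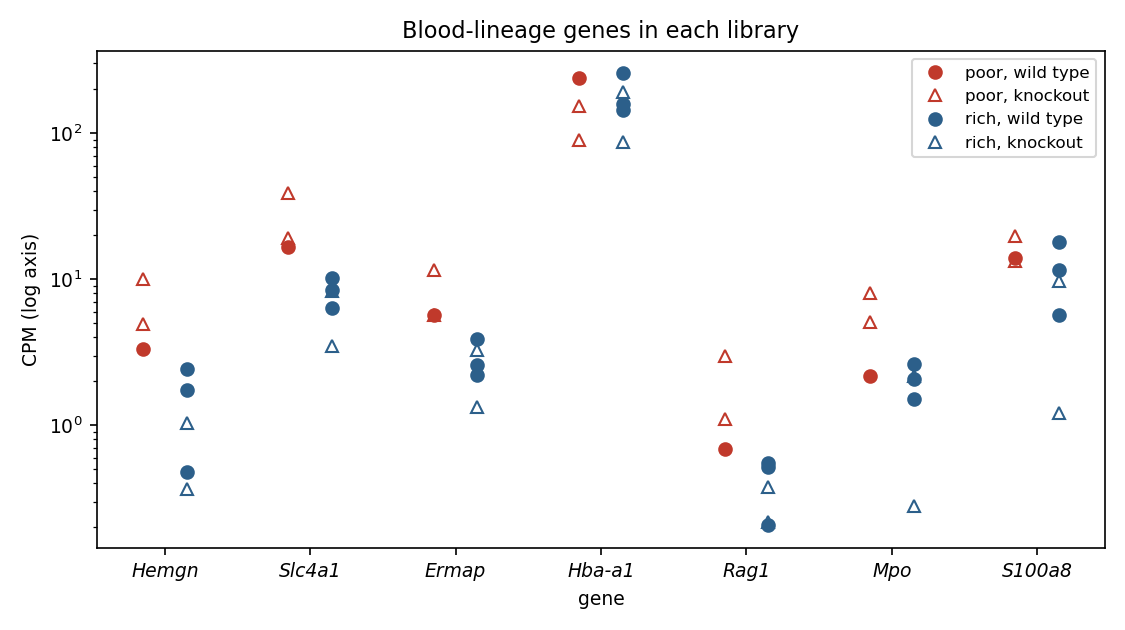
CPM of 7 blood-lineage genes on a log axis, with muscle-poor libraries in red and muscle-rich in blue, filled circles for wild type and open triangles for knockout. Hemgn, Slc4a1, Ermap and Rag1 do not overlap between the classes, Hba-a1, Mpo and S100a8 do, and the lowest muscle-rich triangle of most genes is KO1.

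Genes of B cell and granulocyte precursors leaned the same way, from low levels. Of 18 tested B lymphocyte genes 5 were set apart higher (median 0.98), where 0.35% of all tested genes were. Within genotypes the medians were 0.23 in wild type and 0.95 in knockout, from log2 CPM with a prior count of 2. They are therefore not on the scale of the fitted 0.98. With a filter of 1 CPM in 3 libraries, however, 0 of 10 were set apart (median 0.24). The summed level of the list overlapped between the classes, at 109.8 to 131 CPM against 97.7 to 113 CPM. Rag1, the recombinase of developing lymphocytes, was at 0.693, 3.00 and 1.11 CPM against 0.517, 0.554, 0.207, 0.216 and 0.380 CPM (log2 difference 1.94 ± 0.55), and Vpreb3 and Fcrla, pre-B cell genes, differed by 2.11 ± 0.66 and 2.03 ± 0.51. Of 19 neutrophil genes all lay above 0 (median 0.96), but 1 was set apart, Cxcr2. Mpo, the granule peroxidase, was at 2.19, 8.11 and 5.13 CPM against 2.07, 2.65, 1.51, 0.281 and 2.171 CPM, so that WT3 lay within the muscle-rich range. The within-genotype neutrophil medians were 0.33 in wild type and 2.04 in knockout, and KO1 had the lowest level of the list, 9.30 CPM summed against 29.3 to 102 in the other 7 libraries. Macrophage genes had a median of 0.04.

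KO2 and KO1 held many of the extremes among the higher genes. Of the 64 higher genes 45 had their highest value in KO2 and 32 their lowest in KO1. Without KO2 the erythroid median was 0.39 with 11 genes set apart, and the B lymphocyte median 0.66 with 3. Without KO1 they were 0.51 with 10 and 0.64 with 4, and no neutrophil gene was set apart without either. Without WT3, 315 genes were set apart higher in place of 64.

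KO2 and KO3 also stood apart from the other 6 libraries, WT3 included. Of 18266 tested genes, 1980 were above all 6 in both and 1512 below, at any size of difference. The genes named here were picked after their values were seen. Malat1, a nuclear non-coding RNA, was at 1785 and 1405 CPM in KO2 and KO3, at 537 CPM in WT3, and at 268 to 643 CPM in the muscle-rich libraries. Kcnq1ot1, another nuclear RNA, was at 195 and 154 CPM in those 2 libraries and at 32.4 to 71.0 CPM in the other 6. Bod1l and Ankrd12, which encode large nuclear proteins, were at 134 and 116 CPM and at 89.0 and 76.5 CPM, against 44.8 to 67.7 and 31.1 to 43.7 CPM elsewhere. At 5 CPM or more, 94 of the 18266 genes were at least 1.5-fold higher and above all others in KO2 and KO3. In the other direction 79 were lower to the same degree. The part of this difference in the higher genes was not tested.

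Outside the lists, the named genes of at least 5 CPM that were higher in every muscle-poor library than in any muscle-rich one differed less than 2-fold. Ccdc88a, an actin-binding signalling protein, was at 92.9, 162 and 146 CPM against 74.5, 80.3, 85.8, 87.3 and 62.2 CPM (log2 difference 0.70 ± 0.19), so WT3 stood just above the muscle-rich range. Esf1, Ppig and Top1, which serve ribosome making, splicing and DNA unwinding, differed by 0.55, 0.50 and 0.50 with WT3 again the lowest of the 3 muscle-poor libraries. Cd84, an immune cell receptor, Slitrk6, Nol8 and Lrrn3 differed by 0.43 to 0.53 with WT3 close to KO2 and KO3. The cell cycle gene Cenpe was at 62.3 and 62.1 CPM in KO2 and KO3 and at 32.4 to 36.4 CPM in the other 6 libraries.

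The contrast that the choice of libraries did not use was genotype. The summed marker level averaged 707 ± 496 CPM across the 4 wild-type libraries and 499 ± 685 CPM across the 4 knockout libraries (mean ± SD), a difference smaller than the spread (exact permutation test, two-sided p = 0.6, smallest possible 0.0286). The 179 muscle list genes include the 5 markers and genes that follow them, so a test at equal muscle class covers only what differs between genotypes beyond the class. Of these genes 2 passed an adjusted p of 0.05 between genotypes at equal muscle class by edgeR's quasi-likelihood test. By the same test 19 had an unadjusted p under 0.05, and the share of all tested genes at that limit is not given here. The 19 can therefore not be read as many or few. At the adjusted limit 334 of all 18266 genes (1.83%) were called, 238 lower (1.3%) and 96 higher (0.526%) in knockout. Adssl1, a muscle purine enzyme, was lower in knockout by -0.51 on the log2 scale (adjusted p = 0.021), and Rbm20, a splicing factor of titin, was higher by 0.84 (adjusted p = 0.0442). No muscle list gene was called with replicate number as a block, without the class term, or without WT2, WT3, KO2 or KO3, and 11 were called without KO4.

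The number of genotype calls differed with and without a term for muscle class. With it 334 genes passed and without it 237, and 227 were in both sets, so 107 were called with the term alone and 10 without it alone. No gene was both called between genotypes and set apart by muscle class. Among the 5 muscle-rich libraries alone 7 genes were called, and without WT3, the only muscle-poor wild-type library, 23.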

How the data were processed

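RNA from the calvaria of 8 mice was sequenced in 8 libraries, 4 per genotype. The authors deposited 1 table of raw read counts per gene, with 49315 gene identifiers, of which 49056 were matched to symbols and coordinates of GENCODE release 21 (mouse, GRCm38). Per the submitters' processing notes, bcl2fastq 2.17, STAR 2.5.2b, featureCounts and Subread 1.5.2 were used with mm10, while for annotation release and strand setting the status is: not given in the sources used here. Overlapping and antisense genes can therefore share counts.

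From the deposited counts, genes passing edgeR's filterByExpr by muscle class (a CPM equal to 10 counts in a library of median size, in 3 libraries, and a total of at least 15) were kept, 18266 genes with 99.9% of counts. Models with genotype and muscle class were fitted with edgeR 4.0.16 (quasi-likelihood, TMM factors 0.972 to 1.04, 5 residual degrees of freedom, R 4.3.3). Gene CPM uses TMM sizes, while summed marker CPM uses library totals. Log2 differences between classes or genotypes come from the fit. Mean log2 CPM and differences within a genotype use log2 CPM with a prior count of 2, so the 2 kinds of difference can disagree at low counts. Per-class differences carry no test, because the classes were chosen on the same counts. Each SE given is the size of the log2 difference divided by the square root of its quasi-likelihood F statistic. Genotype was tested at equal class with Benjamini-Hochberg adjustment at 0.05, and the models were tested on simulated data. Alternatives used limma 3.58.1, DESeq2 1.42.0, other filters, scalings, folds and terms, a replicate block, and each library left out. Plots used matplotlib 3.10.9 under Python 3.11.15.

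The members and the 34 gene lists (739 genes, 9 lists of muscle) were chosen with earlier results of these data known. Named genes were the 5 markers, the 12 largest differences in each direction among genes of at least 5 CPM without overlap, the 10 largest in no list, up to 4 per list, and a fixed set of muscle, bone and other tissue markers. Genes named beyond these were chosen after their values were seen. No library pair agreed within sampling noise (lowest chi-square per gene 10.2), so each counted as 1 replicate. Exact intervals and low counts cover counting error only. Some genes that the naming rule covers are not reported here.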

Additional observations from a re-analysis of the deposited data

Results flagged for a closer look

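In 208 groups of 5 muscle-rich libraries examined, 1 for each named gene or list, 16 had 1 library well outside the range of the remaining 4. About 1 in 20 groups, here 10.4, would show this by chance. Of the fast-fibre genes, 3 were low in KO4: Myh1 at 7.52 CPM against 19.8 to 27.6 CPM, Myh2 at 8.90 CPM against 26.9 to 37.5 CPM, and Casq1 at 14.98 CPM against 40.5 to 57.4 CPM. Vgll2, a cofactor in muscle, was at 0.570 CPM there against 2.12 to 2.99 CPM, and the mean log2 CPM of the myosin list was 2.06 against 2.95 to 3.17. KO4 also had low Ppig (76.8 CPM against 101 to 104) and Top1 (87.4 CPM against 111 to 117) and high Phospho1, a phosphatase of mineralising matrix (54.8 CPM against 20.99 to 26.8).

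KO1 was high in Chrng (1.99 CPM against 0.562 to 0.760) and low in Mpo (0.281 CPM against 1.51 to 2.65) and Myh6 (0.584 CPM against 0.843 to 0.95). WT1 was high in Aldoc, a glycolytic enzyme of brain (11.4 CPM against 2.94 to 3.91), and low in Myh11, the smooth muscle myosin (5.85 CPM against 10.2 to 10.9). WT2 was high in Klf6 (108 CPM against 87.0 to 91.2) and Ly6c2 (1.18 CPM against 0.539 to 0.652), and WT4 in Slitrk6 (9.47 CPM against 6.04 to 6.70).

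The difference between muscle-poor and muscle-rich libraries pointed opposite ways in the 2 genotypes for 4 genes and 2 lists. On the log2 scale it was -0.21 in wild type and 0.51 in knockout for Cenpf, -0.0699 and 0.86 for Cenpe, -0.0878 and 0.10 for Sp7, and 0.32 and -0.70 for Mepe, a matrix protein of osteocytes. For the macrophage list it was 0.19 and -0.15, and for the cell cycle list -0.22 and 0.27. These differences between genotypes were not tested, and the wild-type value rests on WT3 alone as the muscle-poor library.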

How the results depend on the processing

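The count of genes set apart lower was 312 and ranged from 288 to 437 when 1 library was left out. It was 203 with a filter of 1 CPM in 3 libraries and 200 at 4-fold. The count set apart higher was 64 and ranged from 76 to 315 with 1 library left out, was 315 without WT3 and 101 without KO3, and was 216 with no count filter, 16 with the 1 CPM filter, 124 at 1.5-fold and 14 at 4-fold. Genotype calls (334) ranged from 23 to 404 with 1 library left out, namely 105 without WT2, 23 without WT3, 73 without KO2 and 119 without KO3. They were 1280 with no filter, 894 with DESeq2 and 7 among the 5 muscle-rich libraries. Muscle list genes called between genotypes (2) ranged from 0 to 11 with 1 library left out, and were 37 with no filter, 5 with DESeq2, 5 with a continuous muscle level, 0 without the class term and 0 in muscle-rich libraries. With replicate number as a block, the counts were 297 lower, 84 higher, 26 genotype calls and 0 muscle genes. Same-numbered libraries had correlations from -0.148 to 0.31, and 1 of 8 libraries correlated best with its own number. These correlations still held the muscle class difference (WT3 with KO2 0.53, with KO1 -0.50), so they cannot decide whether the numbers pair the mice. Of the values of named genes 2974 stayed within the margin and 121 moved, and of those of lists 587 and 25. Under at least 1 alternative 21 named genes, 0 of them set apart, and 9 list medians changed sign, among them Adipoq (-1.77 to 1.71 with 1 library left out), Cidec (-2.70 to 0.47), Ucma (-1.81 to 0.33) and the macrophage (-0.09 to 0.08) and suture (-0.14 to 0.03) medians. The cause of these shifts was not tested. Low counts limit Myf6, Mstn and Chrnd, and the heavy chain shares of WT3.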
